A study of Mus musculus with 40 samples.

Results

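The cortical levels of 10 astrocyte genes of glutamate uptake, water and potassium transport, cell junctions and metabolism were followed in mice carrying the Trem2 H157Y allele. The genes were taken by symbol from the 43346 genes of the count table and were Slc1a2, Slc1a3, Glul, Aqp4, Kcnj10, Gja1, Gjb6, Aldoc, Aldh1l1 and S100b. All 10 were among the 21253 genes left by the filter on low counts. Their smallest count in any library was 2354, for Gjb6. Poly-A RNA of cortex was sequenced from 40 mice with 1 library per mouse, in 4 groups of 10 mice that each held 5 females and 5 males. The non-amyloid cohort was 6 months old and compared WT mice with mice homozygous (Hom) for H157Y, a missense change that CRISPR/Cas9 editing placed at the site where the microglial receptor TREM2 is shed. The amyloid cohort was 8.5 months old and compared the same 2 genotypes in mice that were all hemizygous for 5xFAD, a transgene set driven by the neuronal Thy1 promoter that leads to amyloid plaques. No group was treated, and the study used offspring of 1 of its 2 founders where it named no other line. The transgenes and the age differ together between the cohorts, so their parts in a difference between cohorts cannot be told apart.

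Astrocytes clear glutamate from synapses, mainly through the transporters encoded by Slc1a2 and Slc1a3, and turn it into glutamine with the enzyme encoded by Glul. Their endfeet on blood vessels carry the water channel Aqp4 and the inward rectifier potassium channel Kcnj10, which takes up potassium released by active neurons. Connexins encoded by Gja1 and Gjb6 join astrocytes into a network, and Aldoc and Aldh1l1, enzymes of glycolysis and folate metabolism, and the calcium-binding protein S100b are widely used as markers of the cell type. Around amyloid plaques, astrocytes are known to become reactive and to make more of the filament protein GFAP. In bulk cortex, fewer astrocytes and less RNA per astrocyte cannot be told apart.

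Total counts ran from 41646271 to 105903846 per library. Amyloid Hom replicate 19 had the lowest total and carried 0.66% of its counts on genes annotated as antisense, against at most 0.107% in every other library. It was kept, and values without it stand beside the Hom and sex comparisons where the text gives them. It was the lowest of the 10 amyloid Hom libraries for Glul, Gja1 and Aldoc. The summed level of 6 cortical neuron markers ran from 244.5 to 397 CPM (counts scaled to library size) over the 40 libraries, and that of 4 choroid plexus markers from 7.1 to 668.3 CPM. The genotype rests on the labels, since a count per gene does not show a single base change.

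Per length, Glul was the most abundant of the 10 transcripts. Its level over the 40 libraries was 489 ± 50.3 RPKM (reads scaled to gene length and library size, SD, n = 40), followed by 253 ± 32 RPKM for Slc1a2 and 231 ± 31.2 RPKM for Aldoc. The order of these last 2 was not fixed, and Slc1a2 was above Aldoc in 27 of 40 libraries. S100b (111 ± 12.6 RPKM), Slc1a3 (89.1 ± 8.36 RPKM) and Gja1 (64.8 ± 8.22 RPKM) came next and kept their order in all 40 libraries. Kcnj10 (43.8 ± 10.2 RPKM), Aqp4 (33 ± 9.47 RPKM) and Gjb6 (24.3 ± 4.61 RPKM) overlapped, with Kcnj10 above Aqp4 in 34 libraries and Aqp4 above Gjb6 in 33. Aldh1l1 was the lowest at 12.7 ± 1.90 RPKM and stood below Gjb6 in every library. This order rests on the gene lengths deposited with the counts, 3105 bases for Gja1, 5082 for Aqp4 and 2269 for Gjb6. GENCODE vM21 annotates 10257, 6233 and 2674 exonic bases for them, so the place of Gja1 above all depends on the annotation.

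The levels in amyloid and non-amyloid mice were compared within each genotype. Aqp4 was the one gene of the 10 called in both genotypes by the rule given below, higher by 1.56-fold in WT and 1.43-fold in Hom mice. Aldoc was called in WT mice, at 1.20-fold. The other genes were higher on average by smaller steps. Among them S100b had an adjusted p under 0.05 in both genotypes in edgeR but stayed under the fold threshold. The difference was positive for 10 of 10 genes in each genotype, and its median was 0.17 in WT and 0.18 in Hom mice on the log2 scale, against 0.0023 and 0.027 over all genes tested. The genes share libraries, and the 2 genotypes' values are given side by side without a test of their likeness. A gene was called at an adjusted p under 0.05 in edgeR's quasi-likelihood test and an absolute log2 fold change over 0.25. By this rule 2 of 10 genes were called in WT mice, where 7.95% of all genes tested were, and 1 of 10 in Hom mice, where 6.56% were. Without replicate 19 the differences in Hom mice were 0.53 ± 0.11 for Aqp4 (SE, adjusted p = 0.00104), 0.21 ± 0.051 for Slc1a3 (adjusted p = 0.00837) and 0.21 ± 0.060 for S100b (adjusted p = 0.0284), all in edgeR. For Slc1a2, Aldoc, Gja1, Kcnj10 and Glul they were then 0.21 ± 0.073, 0.19 ± 0.072, 0.18 ± 0.079, 0.080 ± 0.13 and 0.090 ± 0.066, with adjusted p between 0.0916 and 0.780 in edgeR.

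**Figure D1:**
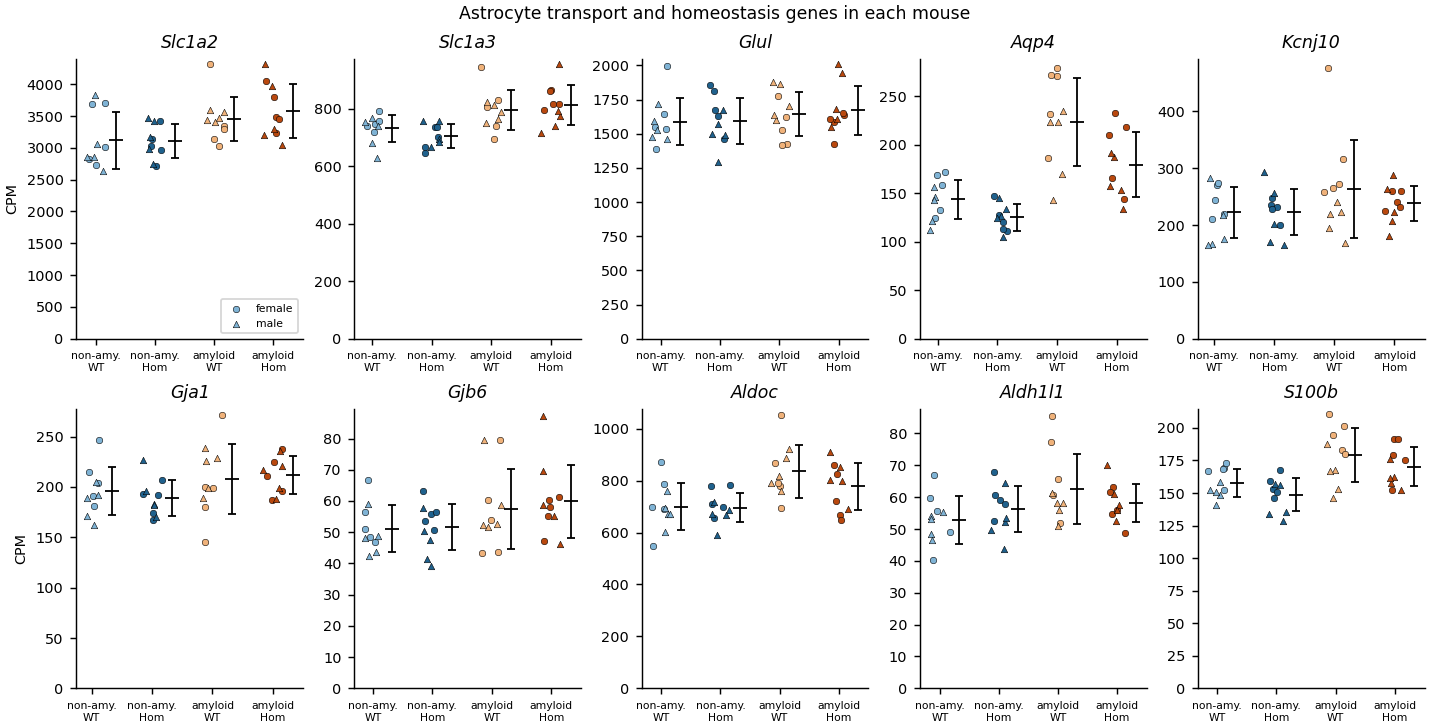
Level of each of the 10 genes (CPM, linear axis from 0) in each mouse of the 4 groups, with females as circles and males as triangles and the mean ± SD of 10 mice beside them. Aqp4 was above every non-amyloid mouse of the same genotype in 8 of 10 amyloid mice, while the groups overlapped widely for Glul, Kcnj10, Gja1 and Gjb6.

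**Figure D2:**
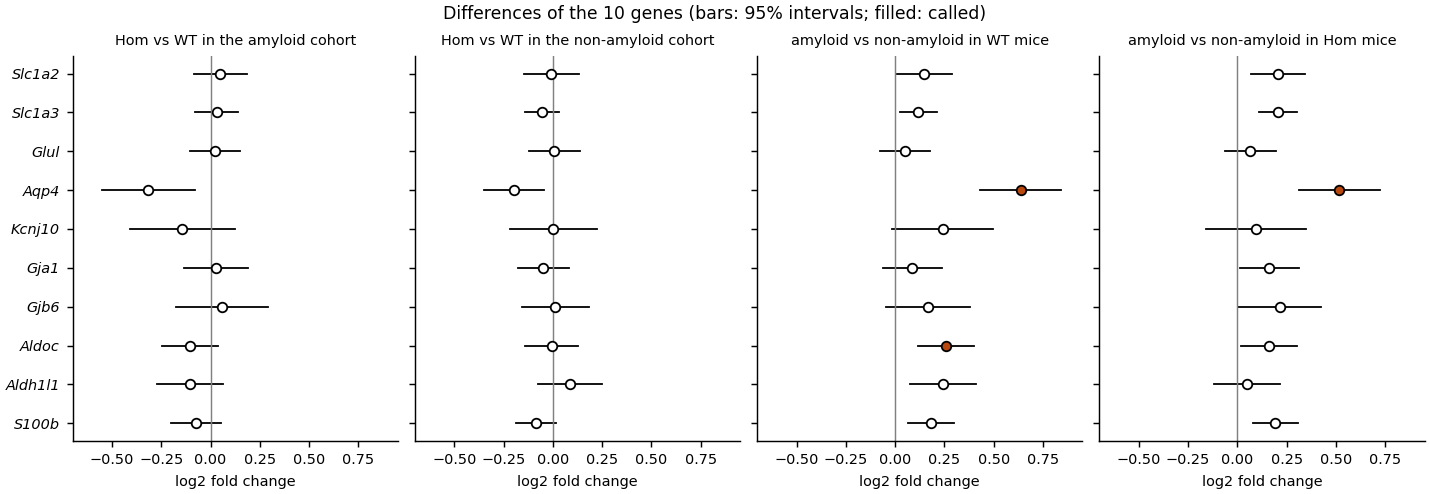
Log2 fold change of each of the 10 genes in 4 comparisons, with 95% intervals (horizontal bars) and genes called by the test as filled points. Aqp4 lay below 0 in both genotype comparisons and above 0 in both cohort comparisons, and Aldoc was the only other gene called.

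Among the glutamate genes, Slc1a2 (chr2:102658659-102790784) was measured at 2630, 2936 and 3837 CPM (lowest, median and highest) in non-amyloid WT mice and at 3028, 3420 and 4310 CPM in amyloid WT mice. The corresponding levels in Hom mice were 2708, 3086 and 3473 CPM without and 3041, 3462 and 4311 CPM with amyloid. All 10 amyloid WT mice were above the non-amyloid WT median, but only 1 was above the whole non-amyloid range. The difference was 0.15 ± 0.071 on the log2 scale (SE, adjusted p = 0.215, edgeR) in WT and 0.21 ± 0.071 (adjusted p = 0.0664) in Hom mice. Slc1a3 (chr15:8634124-8710764) reached 644.4, 698.9 and 758.2 CPM in non-amyloid Hom and 714, 804.8 and 955.5 CPM in amyloid Hom mice, and 8 of 10 amyloid mice stood above the non-amyloid range. This difference of 0.21 ± 0.049 had an adjusted p of 0.0044 in edgeR and stayed under the fold threshold. In WT mice, where Slc1a3 ran from 629.4 to 792.4 CPM without and from 693 to 945.6 CPM with amyloid, the difference was 0.12 ± 0.049 (adjusted p = 0.135, edgeR). Glul (chr1:153899944-153909723) differed little between cohorts, with means of 1589 ± 171 and 1645 ± 162 CPM (SD, n = 10) in WT and 1596 ± 169 and 1671 ± 177 CPM in Hom mice. Its log2 differences were 0.050 ± 0.066 and 0.066 ± 0.066, with adjusted p of 0.757 and 0.562 in edgeR. Slc1a2 and Slc1a3 are neighbours in function and were also the transporter pair whose levels moved together from mouse to mouse (Pearson's r = 0.628), so the RefSeq sequences before their starts are shown, 5′ to 3′ in build GRCm38.p6, with matches to a short motif in capitals. Each motif was searched on both strands of all 32536 such windows of 250 bases. The NFI half-site TTGGCA stood in 12.3% of windows. The SOX motif ACAATG stood in 10.5% of windows. The STAT motif TTCNNNGAA stood in 7.04% of windows. The GC box GGGCGG stood in 33% of windows, and the TATA box, TATAAA, in 12.3%. Slc1a3 holds 1 TATA box on the reverse strand, 1 GC box and 1 STAT match, none of which overlap. The Slc1a2 window holds none of the 5. Its longest run outside annotated exons is printed, 168 bases at chr2:102706188-102706355 on the plus strand and inside the gene. The Slc1a3 stretch is chr15:8710808-8711057 on the minus strand.
Slc1a3: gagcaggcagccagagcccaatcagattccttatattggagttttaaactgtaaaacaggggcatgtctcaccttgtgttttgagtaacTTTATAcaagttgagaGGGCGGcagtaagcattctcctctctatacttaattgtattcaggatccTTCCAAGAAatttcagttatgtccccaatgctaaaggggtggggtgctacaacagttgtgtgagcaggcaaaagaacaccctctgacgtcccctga
Slc1a2: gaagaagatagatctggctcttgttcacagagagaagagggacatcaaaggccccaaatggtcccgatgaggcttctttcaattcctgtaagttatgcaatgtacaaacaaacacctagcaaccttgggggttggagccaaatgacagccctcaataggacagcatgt

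Aqp4 (chr18:15389394-15403684) had the largest difference of the 10 genes between cohorts in both genotypes. It was measured at 112, 145 and 172 CPM (lowest, median and highest) in non-amyloid WT and at 143, 228 and 279 CPM in amyloid WT mice. In Hom mice the levels were 105, 125 and 147 CPM without and 134, 176.5 and 233 CPM with amyloid. In each genotype 8 of 10 amyloid mice were above all non-amyloid mice. The log2 fold change was 0.64 ± 0.10 (SE, adjusted p = 1.35e-05, edgeR) in WT and 0.52 ± 0.10 (adjusted p = 7.72e-04) in Hom mice, and the call was kept in all 40 fits that left out 1 library and in all 7 other alternatives of each comparison. Microglial markers moved with Aqp4 between the cohorts: all 6 of them passed the filter on low counts and rose in WT mice and 5 of 6 rose in Hom mice. Their summed level ran from 275.2 to 358 CPM in non-amyloid WT and from 481.8 to 1049 CPM in amyloid WT mice, and from 305.7 to 344 and from 414 to 685.4 CPM in Hom mice; their part in the Aqp4 difference was not tested. Kcnj10 (chr1:172341210-172374085), the potassium channel of the same endfeet, was measured at 164.5, 219.2 and 283.4 CPM in non-amyloid WT and at 169, 249.3 and 476.5 CPM in amyloid WT mice. Its groups overlapped over most of their range, and the log2 fold change was 0.24 ± 0.13 (adjusted p = 0.295, edgeR) in WT and 0.095 ± 0.13 (adjusted p = 0.691) in Hom mice. The highest Kcnj10 level belonged to amyloid WT replicate 12, a female, and without it the difference in WT mice was 0.11 ± 0.11.

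The junction genes overlapped between cohorts in both genotypes. Gja1 (chr10:56377300-56390419), which encodes connexin 43, averaged 196 ± 23.8 CPM (SD, n = 10) in non-amyloid and 208 ± 34.9 CPM in amyloid WT mice, and 189 ± 18.1 and 212 ± 18.7 CPM in Hom mice. Gjb6 (chr14:57123303-57133611), which encodes connexin 30, averaged 51.2 ± 7.47 and 57.5 ± 12.8 CPM in WT and 51.6 ± 7.44 and 59.9 ± 11.7 CPM in Hom mice. No more than 2 of 10 amyloid mice were above the non-amyloid range for either gene. The log2 differences were 0.087 ± 0.077 and 0.16 ± 0.077 for Gja1 and 0.17 ± 0.11 and 0.21 ± 0.11 for Gjb6 in WT and Hom mice, with adjusted p between 0.202 and 0.595 in edgeR.

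Aldoc (chr11:78322968-78327781), the aldolase typical of astrocytes, was measured at 548.2, 692.4 and 870.6 CPM (lowest, median and highest) in non-amyloid WT and at 692.8, 805.1 and 1052 CPM in amyloid WT mice. All 10 amyloid WT mice were above the non-amyloid WT median and 3 were above its range. The log2 fold change was 0.26 ± 0.071 (SE, adjusted p = 0.0132, edgeR), just past the fold threshold. The call was lost without amyloid WT replicates 12, 13, 27 or 32 or non-amyloid WT replicates 15 or 31, each time at an adjusted p of at most 0.045 and a log2 fold change of at least 0.22. It was also lost in DESeq2, in limma-voom, without a filter on low counts and with edgeR's filterByExpr, each at a log2 fold change of 0.24 and an adjusted p between 0.0047 and 0.0466. In Hom mice Aldoc ran from 591.2 to 782.4 CPM without and from 650 to 909.8 CPM with amyloid, a difference of 0.16 ± 0.071 (adjusted p = 0.172, edgeR). Aldh1l1 (chr6:90486427-90600203) averaged 52.9 ± 7.46 and 62.6 ± 11 CPM (SD, n = 10) in WT mice, a difference of 0.24 ± 0.086 (adjusted p = 0.0683, edgeR), and 56.2 ± 7.22 and 58.2 ± 6.05 CPM in Hom mice. Of its annotated exonic bases 11% also belong to a gene on the opposite strand, and the strand setting of the counting was not given in the sources used here. S100b (chr10:76253853-76261159) was measured at 140.6, 155.4 and 173.1 CPM in non-amyloid WT and at 146.4, 181.5 and 210.7 CPM in amyloid WT mice, and at 128.5, 151.9 and 167.9 CPM and 152, 169.1 and 191.6 CPM in Hom mice. All 10 amyloid Hom mice were above the non-amyloid Hom median. The differences of 0.18 ± 0.059 in WT and 0.19 ± 0.059 in Hom mice had adjusted p of 0.0406 and 0.0338 in edgeR and stayed under the fold threshold. Aldoc and Aldh1l1 formed the pair of the 10 that moved together most closely from mouse to mouse, and the RefSeq sequences before their starts are shown in build GRCm38.p6, both on the plus strand and outside annotated exons, with motif matches in capitals. The Aldoc stretch of 145 bases is chr11:78322823-78322967 and holds an NFI half-site, and the rest of its window, in an annotated exon and not printed, holds a GC box. A further RefSeq window of Aldoc, which starts at chr11:78323948 inside the gene, holds 2 STAT matches and is not printed. The Aldh1l1 stretch of 246 bases, chr6:90550543-90550788, lies inside the gene and holds a GC box.
Aldoc: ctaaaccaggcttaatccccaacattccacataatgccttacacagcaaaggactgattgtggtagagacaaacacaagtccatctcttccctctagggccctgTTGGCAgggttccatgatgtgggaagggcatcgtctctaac
Aldh1l1: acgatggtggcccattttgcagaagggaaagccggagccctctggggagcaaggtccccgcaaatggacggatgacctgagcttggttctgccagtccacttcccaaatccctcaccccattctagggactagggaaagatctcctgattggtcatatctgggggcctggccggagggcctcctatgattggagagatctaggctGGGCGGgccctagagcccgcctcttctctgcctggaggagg

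The comparison of Hom with WT mice asked whether the H157Y allele went with other levels of these genes, with and without amyloid. None of the 10 was called in either cohort. Aqp4 was the only one with an unadjusted p under 0.05, and it was lower in Hom mice of both cohorts. This was 1 of 10 genes in each cohort, where 9.67% of all genes tested had such a p in the amyloid and 4.49% in the non-amyloid cohort. In the amyloid cohort 0 of 10 genes were called where 0.0753% of all genes tested were, in the non-amyloid cohort 0 of 10 against 0.0329%, and DESeq2 and limma-voom also called 0 of 10 in each. The median log2 fold change of the 10 genes was -0.026 in the amyloid and -0.0070 in the non-amyloid cohort, against 0.0014 and -0.0066 over all genes. The difference between the 2 genotype effects was called for 0 of 10 genes and 0% of all genes, with 0 of 10 at an unadjusted p under 0.05.

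Aqp4 averaged 223 ± 45.6 CPM (SD, n = 10) in amyloid WT and 179 ± 33.6 CPM in amyloid Hom mice. The groups overlapped, but 9 of the 10 Hom mice were below the WT median and 4 WT mice were above every Hom mouse. The log2 fold change was -0.32 ± 0.12 (SE, 95% interval -0.55 to -0.08, adjusted p = 0.326, edgeR), and -0.30 ± 0.12 without replicate 19. In the non-amyloid cohort Aqp4 averaged 144 ± 20.5 CPM in WT and 125 ± 13.9 CPM in Hom mice, with 4 WT mice above every Hom mouse and 2 Hom mice below every WT mouse. This difference was -0.20 ± 0.078 (adjusted p = 0.962, edgeR). The effects in the 2 cohorts differed by -0.12 ± 0.15 (adjusted p = 0.751, edgeR). A mean of both genotype effects in 1 fit of all 40 libraries, chosen after these values were seen, gave -0.26 ± 0.074 for Aqp4, 0.837-fold (unadjusted p = 0.00121, adjusted p = 0.140, edgeR). This mean called 0 of 10 genes, also in DESeq2 and limma-voom, where 0.165% of all genes tested were called, and 1 of 10 genes had an unadjusted p under 0.05, against 7.65% of all genes. Without amyloid WT replicate 13 Aqp4 passed this test, with an adjusted p of 0.0387 in edgeR. In the amyloid cohort the microglial sum ran from 481.8 to 1049 CPM in WT and from 414 to 685.4 CPM in Hom mice, and 6 of 6 markers were lower in Hom mice with 0 called in edgeR and 5 at an unadjusted p under 0.05; their part in the Aqp4 difference was not tested.

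The other 9 genes differed little between genotypes. In the amyloid cohort their log2 differences ran from -0.14 for Kcnj10 to 0.058 for Gjb6, and in the non-amyloid cohort from -0.086 for S100b to 0.087 for Aldh1l1. The intervals set the precision: for Slc1a2 the 95% interval was -0.083 to 0.18 with and -0.15 to 0.13 without amyloid, and for Glul -0.10 to 0.15 and -0.12 to 0.14. Kcnj10 had the widest interval in the amyloid cohort, -0.41 to 0.12, and its difference of -0.14 became -0.0085 without amyloid WT replicate 12. Aldoc (-0.10 ± 0.073) and Aldh1l1 (-0.11 ± 0.085) had differences (SE) that did not pass the test in the amyloid cohort, with adjusted p of 0.647 and 0.677 in edgeR.

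**Figure D3:**
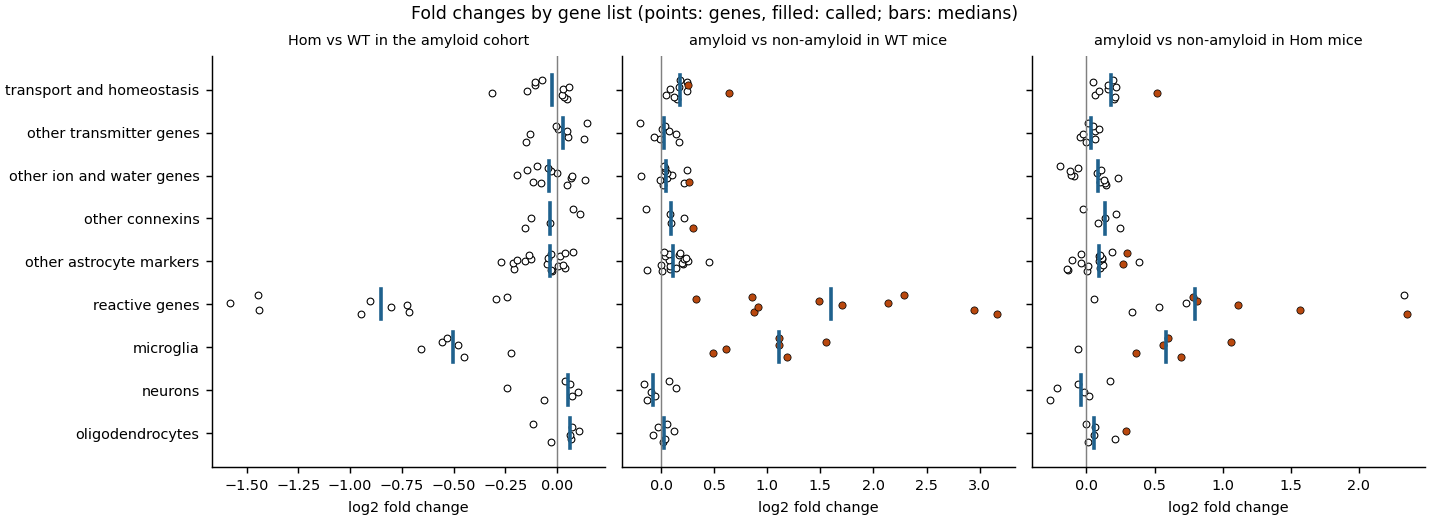
Log2 fold change of every tested gene of 9 gene lists in 3 comparisons (points are genes, filled where called, vertical bars are list medians). In Hom against WT amyloid mice the 10 transport and homeostasis genes had a median of -0.026, with Aqp4 the lowest at -0.32. The 10 reactive genes had a median of -0.85 there.

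Other astrocyte genes were read beside the 10. Of 8 further genes of transmitter and amino acid transport, such as the GABA transporter Slc6a11, 0 were called in any of the 4 comparisons of cohort or genotype within a group, with 1 at an unadjusted p under 0.05 between cohorts in WT mice and 0 in the others. Of 12 further genes of ion and water handling and the dystrophin complex that anchors Aqp4, Atp1b2, a subunit of the sodium pump, rose in amyloid WT mice (log2 fold change 0.26 ± 0.057, adjusted p = 0.00108, edgeR). Of 5 other connexins, Gjb2 rose in the same comparison by 0.30 ± 0.098 (adjusted p = 0.0410, edgeR). Of 18 further astrocyte markers 0 were called higher in WT mice, with 7 at an unadjusted p under 0.05. The coagulation receptor F3 (0.30 ± 0.076) and Ppp1r3c, a glycogen regulator (0.27 ± 0.072), were called higher in Hom mice, with adjusted p of 0.0089 and 0.0145 in edgeR. The medians of these 4 lists in WT mice were 0.024, 0.046, 0.096 and 0.11 on the log2 scale. The genes of reactive astrocytes had larger differences. All 10 of them were called higher with amyloid in WT mice, by a median of 1.60 on the log2 scale. In Hom mice all 10 were also higher, with a median of 0.80, and 5 of 10 were called. Gfap rose by 3.16 ± 0.20 in WT and by 2.35 ± 0.19 in Hom mice, from 91.9 ± 8.5 to 823 ± 404 CPM and from 83.6 ± 12.6 to 426 ± 134 CPM (SD, n = 10). In amyloid Hom against WT mice the reactive genes were lower in 10 of 10 cases with a median of -0.85. By the rule used here 0 were called, and 8 had an unadjusted p under 0.05. Gfap stood at -0.95 ± 0.24 (adjusted p = 0.083) and Serpina3n at -1.44 ± 0.31 (adjusted p = 0.055), both in edgeR. The study, which left out 1 Hom female, reported both genes as downregulated in this comparison, and less GFAP-stained area. How many genes were called here depended on the fit, as given below. The same comparison put the 10 transport and homeostasis genes at 5 higher and 5 lower.

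Females and males were compared in each cohort with genotype as a covariate. In the amyloid cohort 0 of 10 genes were called, where 0.24% of all genes were, but 4 of 10 had an unadjusted p under 0.05 against 7.92% of all genes. These were S100b (log2 difference of females from males 0.19 ± 0.053, adjusted p = 0.158), Kcnj10 (0.34 ± 0.12, adjusted p = 0.349), Aqp4 (0.28 ± 0.11, adjusted p = 0.430) and Glul (-0.16 ± 0.056, adjusted p = 0.364), all in edgeR. Without replicate 19 these differences were 0.21 ± 0.049 for S100b (adjusted p = 0.0548), 0.34 ± 0.12 for Kcnj10 (adjusted p = 0.388), 0.31 ± 0.11 for Aqp4 (adjusted p = 0.352) and -0.14 ± 0.056 for Glul (adjusted p = 0.509, edgeR). S100b averaged 194 ± 12.8 CPM (SD, n = 5) in amyloid WT females and 164 ± 16 CPM in males, and 178 ± 15.9 and 162 ± 9.03 CPM in Hom mice. In the non-amyloid cohort 0 of 10 genes were called against 0.118% of all genes, and 2 of 10, S100b (0.13 ± 0.044) and Gjb6 (0.20 ± 0.079), had an unadjusted p under 0.05, against 6.13% of all genes. DESeq2 and limma-voom called 0 of 10 in both cohorts. Gfap itself was higher in amyloid females by 0.83 ± 0.17 (adjusted p = 0.0377, edgeR). The 6 microglial markers were also all higher in amyloid females, by a median of 0.34 on the log2 scale, with 0 called in edgeR and 5 at an unadjusted p under 0.05. Their summed level ran from 677.6 to 1049 CPM in amyloid WT females and from 481.8 to 782.7 CPM in males, and from 479.8 to 685.4 and from 414 to 529 CPM in Hom mice; their part in the sex differences of the 10 genes was not tested. Kcnj10 averaged 318 ± 91.6 CPM in amyloid WT females, 209 ± 27.7 CPM in WT males, 244 ± 16.2 CPM in Hom females and 233 ± 42.6 CPM in Hom males. The genotype effect on it differed between the sexes by -0.54 ± 0.21 (females minus males, adjusted p = 0.817, edgeR), and by -0.34 ± 0.16 without amyloid WT replicate 12. The test of that difference called 0 of 10 genes and 0% of all genes, DESeq2 and limma-voom called 0 of 10, and Kcnj10 was the 1 gene of the 10 with an unadjusted p under 0.05, against 5.29% of all genes.

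The 10 genes did not vary as 1 block from mouse to mouse. Over the 45 pairs, the log2 CPM centred on each of the 4 groups gave a positive Pearson's r in 31 pairs with a median of 0.131, and 9 pairs passed a permutation test of r within groups (100000 permutations, two-sided, Benjamini-Hochberg over 45 pairs). On rank, 7 of these 9 also passed, while Slc1a2 with Gjb6 (adjusted permutation p of rho = 0.195) and Slc1a3 with Gjb6 (0.103) did not. Aldoc and Aldh1l1 were the closest pair over the 40 mice (r = 0.822, rho = 0.783, permutation p = 1e-05 for both, the smallest that these permutations can give, adjusted p = 0.00045). Their r was 0.766 in the amyloid and 0.882 in the non-amyloid cohort, 0.764 without the 2 mice farthest from the median of Aldoc and 0.841 without replicate 19. Other pairs joined transporters, connexins, Glul and Aqp4. Slc1a3 went with Gja1 (r = 0.557, rho = 0.6, adjusted permutation p = 0.00648 and 0.00247). Their r was 0.439 in the amyloid and 0.761 in the non-amyloid cohort, and 0.501 without 2 mice. Aqp4 went with Gja1 as well (r = 0.46, rho = 0.516, adjusted permutation p = 0.0436 and 0.0152). That r was 0.291 in the amyloid and 0.81 in the non-amyloid cohort, and 0.526 without 2 mice. Slc1a2 went with Slc1a3 (r = 0.628, rho = 0.518, adjusted permutation p = 0.00045 and 0.0152; 0.739 and 0.517 within the cohorts; 0.563 without 2 mice). Slc1a2 also went with Gja1 (r = 0.56, rho = 0.475, adjusted permutation p = 0.00214 and 0.0198; 0.597 and 0.535 within the cohorts; 0.497 without 2 mice). Glul went with Gjb6 (r = 0.599, rho = 0.503, adjusted permutation p = 0.0006 and 0.0152; 0.642 and 0.563 within the cohorts; 0.487 without 2 mice). Gja1 and Aldh1l1 were the 1 pair of the 9 with a negative relation (r = -0.506, rho = -0.455, adjusted permutation p = 0.0209 and 0.0332; -0.623 and -0.364 within the cohorts; -0.398 without 2 mice).

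**Figure D4:**
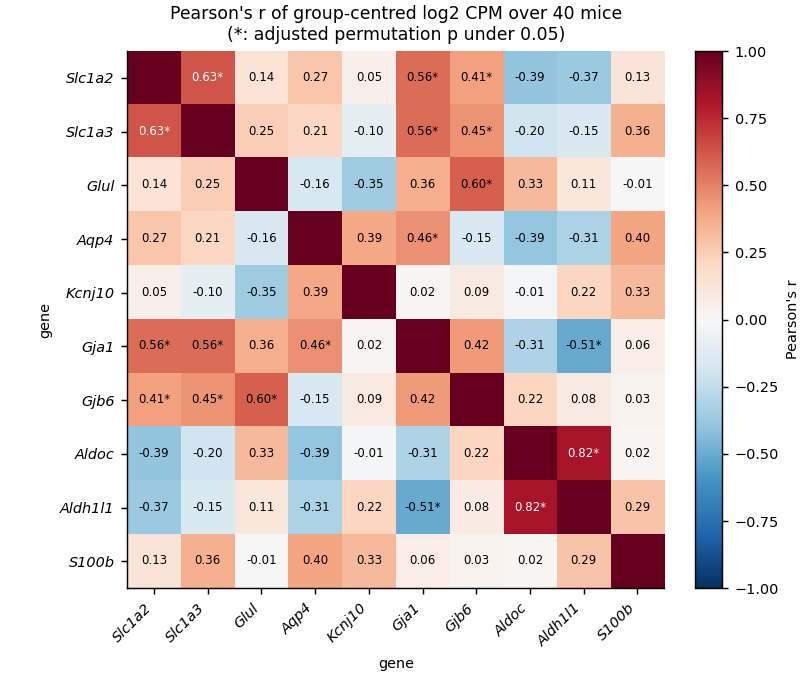
Pearson's r between the group-centred log2 CPM of the 10 genes over 40 mice, with an asterisk where the adjusted permutation p of r was under 0.05. Aldoc and Aldh1l1 formed the strongest pair at 0.82, and Gja1 and Aldh1l1 the most negative at -0.51.

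Within the amyloid cohort Aqp4 and Kcnj10 went with Gfap on both r and rank, and S100b on r only. Among 20 relations tested (10 genes in 2 cohorts, centred on genotype, n = 20 mice each), Aqp4 had r = 0.681 and rho = 0.662 with Gfap in amyloid mice (adjusted permutation p = 0.0138 and 0.0451). Its r was 0.606 in WT and 0.815 in Hom mice, 0.576 without the 2 mice farthest from the median of Gfap and 0.526 when sex was centred as well. Kcnj10 had r = 0.702 and rho = 0.647 (adjusted permutation p = 0.0138 and 0.0451), with 0.816 in WT and 0.399 in Hom mice, 0.499 without 2 mice and 0.504 with sex centred. S100b had r = 0.609 and rho = 0.574 (adjusted permutation p = 0.0442 and 0.0698), with 0.725 in WT and 0.384 in Hom mice, 0.583 without 2 mice and 0.196 with sex centred. In the non-amyloid cohort, where Gfap ran from 70.45 to 111.3 CPM, the r of Aqp4, Kcnj10 and S100b with Gfap was -0.218, 0.0622 and 0.291. There Aldoc was the gene that passed, on r only (r = 0.597, rho = 0.490, adjusted permutation p = 0.0138 and 0.117). Its r was 0.392 without 2 mice. Without replicate 19 the r of Aqp4, Kcnj10 and S100b with Gfap in amyloid mice was 0.696, 0.698 and 0.662. The difference between the cohorts in these relations was not tested.

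**Figure D5:**
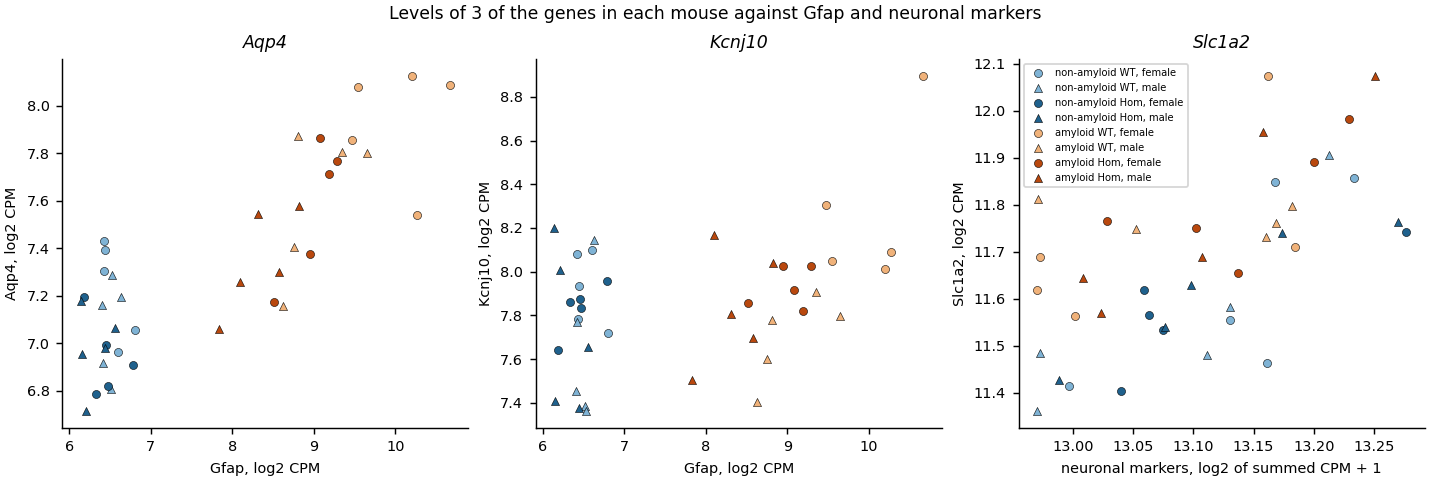
Log2 CPM of Aqp4 and Kcnj10 against that of Gfap, and of Slc1a2 against the log2 summed CPM of 6 neuronal markers, in each of 40 mice (colours are groups, circles females, triangles males). The amyloid mice stand apart on Gfap, and the highest Kcnj10 value is amyloid WT replicate 12 at 476.5 CPM.

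Sums of marker genes of other cell types were set beside the 10 genes in the same way, for 6 lists and 60 relations over 40 mice. Levels were centred on the 4 groups and not on sex, and the part of sex in these relations was not tested. Aqp4 went with the microglial sum (r = 0.771, rho = 0.685, adjusted permutation p = 0.0003 and 0.0015; 0.833 in the amyloid and 0.606 in the non-amyloid cohort; 0.694 without 2 mice), as did S100b (r = 0.649, rho = 0.601, adjusted permutation p = 0.0012 and 0.0024; 0.797 and 0.244; 0.518 without 2 mice). Slc1a2 went with the neuronal sum (r = 0.742, rho = 0.752, adjusted permutation p = 0.0003 and 0.0006; 0.658 and 0.814; 0.729 without 2 mice), as did Gja1 (r = 0.496, rho = 0.505, adjusted permutation p = 0.025 and 0.0236; 0.484 and 0.522; 0.467 without 2 mice). These were the 4 of 60 that passed on r, and 0 passed on r for the oligodendrocyte, endothelial, choroid plexus and striatal sums. On rank Slc1a2 also passed with the striatal sum (rho = -0.487, adjusted permutation p = 0.0236). The r of that relation was -0.422 (adjusted permutation p = 0.0506). The neuronal sum itself ran from 8025 to 9631 CPM in non-amyloid WT and from 8024 to 9306 CPM in amyloid WT mice. Outside the 10, the genes whose group-centred levels were most like the mean of the 10 scaled genes over the 40 libraries, of 21243 compared, were Ptplb (r = 0.766), Mertk (r = 0.763), Gyg (r = 0.739), Fkbp14 (r = 0.727) and Rin2 (r = 0.715), given as a description.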

How the data were processed

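RNA of 40 cortices was sequenced by the authors after poly-A selection. The deposited values are whole-number counts per gene (featureCounts on mm10); the submitters' processing notes name STAR 2.5.2b and featureCounts 1.5.1, whereas the study's methods name TopHat and Bowtie within MAP-RSeq, and the strand setting was not given in the sources used here. Groups came from the labels. The 21253 genes that reached 10 counts in 4 or more libraries were fitted with edgeR 4.0.16 (R 4.3.3) after TMM scaling, with the quasi-likelihood test: per cohort for genotype, over all 4 groups for the interaction and the cohorts, and with genotype and sex for the sexes. Adjusted p-values (Benjamini-Hochberg) cover all genes tested. CPM and RPKM use the scaled library sizes and the gene lengths in the table. Intervals are 95% and come from the standard errors. All 40 libraries were kept, although the study set aside 1 unnamed Hom female of the amyloid cohort. DESeq2 1.42.0, limma 3.58.1 voom with quality weights, upper-quartile scaling, other filters, covariates and leaving out each library were tried. Simulated counts were drawn independently for each gene and mouse. The direction was checked there only for changed genes that the fits called, and these had the right direction. That check does not cover changed genes that were missed. The text names the 10 genes, called genes of the lists (up to 4 per list) and the 5 genes most like the 10. The members and lists were chosen with earlier results of these data known. P-values cover the spread between mice. Correlations were tested with NumPy by permuting mice within groups.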

Additional observations from a re-analysis of the deposited data

Results flagged for a closer look

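Of 40 sets of 10 mice (10 genes in 4 groups), 2 held a mouse whose gap to its nearest neighbour was large for the group's range by Dixon's 95% limit, which chance passes in about 1 of 20 sets. Kcnj10 was 476.5 CPM in amyloid WT replicate 12, a female, against 316.6 CPM in the next mouse, a gap of 0.52 of the range. The same mouse had the highest Gfap level of all, 1627 CPM. Slc1a2 was 4310 CPM in amyloid WT replicate 8 against 3597 CPM in the next, a gap of 0.556 of the range. Amyloid Hom held a value as high, 4311 CPM, without a gap of that size.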

How the results depend on the processing

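Aqp4 kept its call between cohorts under 94 of 94 alternatives. Of 2790 alternative values for the differences of single genes, 2680 kept direction and side of the threshold and 96 changed sign, all for differences of at most 0.0958 on the log2 scale; the causes were not tested. No paired analysis was possible because each replicate number belongs to 1 mouse.

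Genes called in Hom against WT amyloid mice were 16, but 303 in DESeq2, 25 in limma-voom, 9 without a filter, 65 with filterByExpr, 251 with sex as a covariate, 612 in 1 fit of all libraries and 6 (without amyloid WT replicate 12) to 204 (without amyloid WT replicate 13) when 1 library was left out; none was one of the 10 genes. In the non-amyloid cohort they were 7, 11 in DESeq2 and 4 to 8 with 1 library left out. The interaction went from 0 to 38 in DESeq2, 12 with sex and 0 to 22 with 1 library left out. The mean genotype effect called 35, 103 in DESeq2, 23 in limma-voom, 82 with sex (62 also without replicate 19) and 23 to 107 with 1 library left out, of which 0 to 1 were among the 10. Sex in the amyloid cohort called 51, 257 in DESeq2, 113 in limma-voom, 26 without a filter and 107 without replicate 19; in the non-amyloid cohort 25, 48 in DESeq2 and 38 in limma-voom. Genotype by sex gave 0 to 1. Of the 10 genes, amyloid WT mice called 1 in DESeq2, limma-voom, without a filter and with filterByExpr, and 1 to 3 with 1 library left out; Hom mice called 3 without a fold threshold.

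Signs changed in limma-voom in the non-amyloid cohort for Slc1a2 (0.030), Kcnj10 (-0.027; -0.0051 with upper-quartile scaling) and Aldoc (0.010), in the interaction for Slc1a2 (-0.0096) and Glul (-0.0020), between sexes for Slc1a2 (-0.013), for Gjb6 by genotype and sex (0.13), and in the mean genotype effect for Gja1 (0.0017) and Aldh1l1 (0.045). With 1 library left out, the amyloid genotype difference ran from -0.010 to 0.047 for Glul, -0.020 to 0.077 for Gja1 and -0.017 to 0.12 for Gjb6. Without amyloid it ran from -0.032 to 0.030 for Slc1a2, -0.020 to 0.048 for Glul, -0.050 to 0.046 for Kcnj10, -0.024 to 0.061 for Gjb6 and -0.041 to 0.033 for Aldoc. The interaction ran from -0.025 to 0.043 for Glul, -0.028 to 0.11 for Gjb6 and -0.018 to 0.045 for S100b. The mean genotype effect ran from -0.027 to 0.0030 for Slc1a3, -0.0019 to 0.035 for Glul, -0.034 to 0.014 for Gja1, -0.0023 to 0.066 for Gjb6 and -0.029 to 0.020 for Aldh1l1. Genotype by sex ran from -0.010 to 0.14 for Slc1a2, -0.010 to 0.11 for Slc1a3, -0.037 to 0.057 for Glul, -0.17 to 0.018 for Aqp4 and -0.23 to 0.062 for Gjb6. With sex as a covariate and without amyloid Hom replicate 19, an alternative chosen after seeing the data, the log2 difference of Aqp4 between amyloid Hom and WT mice was -0.29 (adjusted p = 0.411, edgeR).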

Other observations

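The spread between mice of 1 group differed among the 10 genes. The coefficient of variation was 5.77% to 8.55% for Slc1a3 and 6.81% to 11.5% for S100b over the 4 groups, and 9.86% to 10.8% for Glul. It was 11.1% to 20.4% for Aqp4 and 13% to 32.6% for Kcnj10. The highest Kcnj10 figure, in amyloid WT mice, rested on replicate 12 and was 18.5% without it, against 20.1% in non-amyloid WT mice. Gfap varied by 9.26% in non-amyloid WT and by 49% in amyloid WT mice. Whether the spreads differ between groups was not tested.

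Aqp4 was not searched for motifs. In the windows before the starts of the other genes of the set, Glul held 1 GC box, Kcnj10 held 2, S100b held 1 NFI half-site and Gja1 and Gjb6 held none of the 5 motifs. The share of G and C in the member windows ran from 44.8% to 64.8%, against a median of 52.4% over all windows.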
